A study of Mus musculus with 6 samples.

Results

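The FXR cistrome of Bcl6 fl/fl control liver consisted of 20040 regions, the complete list of FXR peaks called in this genotype, out of 32535 peaks in the 2 lists of the series. It was measured by ChIP-seq in liver of male C57BL/6 mice that carry loxP sites at both Bcl6 alleles and no Cre transgene, so that BCL6 is still made, and these livers served as wild type (WT). The second genotype of the series carries the same alleles with Alb-cre, and it was not analysed here. The samples were 2 WT FXR ChIP libraries and 1 WT input library, which is chromatin sequenced without immunoprecipitation. The age of the mice was not given in the sources used here, and the feeding state was given only in general terms, as fed ad libitum or fasted briefly. Whole liver was used, so FXR bound in hepatocytes and in other liver cells cannot be told apart.

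FXR, the product of Nr1h4, is a nuclear receptor for bile acids that binds DNA mostly as a heterodimer with a retinoid X receptor. In liver it is known for raising Nr0b2, which encodes the repressor SHP, and for raising the bile salt export pump gene Abcb11, by which bile acid synthesis falls and bile acid export rises. Its preferred binding element is a pair of AGGTCA half-sites that face each other across a single base, an inverted repeat written IR1, while other nuclear receptors prefer direct repeats.

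The sequences under peaks that the results turn on are given first, on the plus strand of mm10 coordinates, with capitals marking the best match to IR1. The first set shows FXR peaks of bile acid and feedback genes, with Fgf21 among them for its exact match to IR1, and strong peaks with an exact match at Cnn3 and Trp63.
Nr0b2, downstream peak (chr4:133557486-133557696): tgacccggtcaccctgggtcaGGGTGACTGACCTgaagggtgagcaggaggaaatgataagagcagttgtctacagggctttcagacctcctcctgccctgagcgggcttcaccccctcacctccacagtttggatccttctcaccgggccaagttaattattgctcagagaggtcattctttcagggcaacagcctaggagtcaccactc
Nr0b2, promoter peak (chr4:133552953-133553163): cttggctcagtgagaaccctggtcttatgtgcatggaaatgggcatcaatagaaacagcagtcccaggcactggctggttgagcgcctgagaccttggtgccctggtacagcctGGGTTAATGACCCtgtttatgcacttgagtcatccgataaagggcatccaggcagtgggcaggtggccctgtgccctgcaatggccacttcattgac
Abcb4, intronic peak (chr5:8928626-8928836): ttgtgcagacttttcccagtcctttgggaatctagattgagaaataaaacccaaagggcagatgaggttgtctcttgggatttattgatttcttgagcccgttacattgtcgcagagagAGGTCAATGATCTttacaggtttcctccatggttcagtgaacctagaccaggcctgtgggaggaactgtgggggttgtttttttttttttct
Abcb11, promoter site (chr2:69342659-69342687): ttgcttatAGGTCAATGGCCTaaagtcca
Slc51b, promoter site (chr9:65422940-65422968): ccagtccaGGGTGAATGACCCcacgaatg
Fgf21, intergenic site (chr7:45597809-45597837): gatctgggAGGTCATTGACCTgccagcct
Cnn3, intergenic site (chr3:121378820-121378848): tgacctggAGGTCAGTGACCTtcatggtc
Trp63, intronic site (chr16:25805160-25805188): ggcaggccAGGTCACTGACCTcggggcct
The capitals of the Fgf21, Cnn3 and Trp63 sites differ from IR1 at 0 of the 12 scored bases. Those at Abcb11 and in the Abcb4 intron differ at 1 base, those downstream of Nr0b2 at 2 bases, and those at the Nr0b2 and Slc51b promoters at 3 bases.

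Depth was uneven. ChIP replicate 1 held 19022618 tags, replicate 2 held 2883717 tags and the input held 6964271 tags. Levels below are the deposited log2 normalised tags per peak, in the order replicate 1, replicate 2 and input. The median peak stood at 4.34 in replicate 1, 4.91 in replicate 2 and -0.38 in the input. Replicate 2 gave the higher value at 84.7% of peaks, so the spread between replicates was largely a shift of the whole library. With 2 ChIP libraries and 1 input library the smallest exact permutation p is 0.333, and every peak had been selected for ChIP over input, so no test of binding is given. Intervals are 95% Wilson intervals that cover counting error over peaks or genes and not variation between mice.

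The input values fell into bands. In 14063 peaks the input lay at or under 0.36, in 3638 peaks between 0.96 and 1.36, and in 1474 peaks between 1.75 and 1.95. The remaining 865 peaks had an input of 2.25 to 6.23. Counted from the lowest, these are bands 1 to 4. Within band 1 the input value rose with the mean ChIP level (Pearson r = 0.997 across 14063 peaks, which are not independent replicates), so a deposited input value is not independent of the ChIP values beside it.

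The 3 strongest FXR peaks were not assigned to genes of the bile acid or feedback lists, while Nr0b2 of the feedback list followed further down. Among peaks whose input was at or under its 95th percentile of 1.85, the leading peak lay 3030 bp upstream of Ptgds, the prostaglandin D2 synthase gene, with levels of 9.28, 10.71 and 0.36. The next was in the promoter region of Fcna, which encodes the lectin ficolin A, at 8.93, 10.30 and 1.36. After it came one that lay 3414 bp upstream of an Arhgef7 start site and within an intron, at 8.65, 9.76 and 0.25. Both ChIP libraries ranked these peaks at 1, 2 and 3 of all 20040.

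The 3 leading peaks had a feature in common: part or all of their sequence consisted of short tandem repeats. They are printed whole to show the repeated units, again with the best IR1 match in capitals.
Ptgds, intergenic peak (chr2:25472674-25472884): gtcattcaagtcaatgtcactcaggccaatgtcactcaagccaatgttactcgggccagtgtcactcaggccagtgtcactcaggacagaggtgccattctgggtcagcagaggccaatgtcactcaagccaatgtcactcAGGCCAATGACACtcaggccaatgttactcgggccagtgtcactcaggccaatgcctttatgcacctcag
Fcna, promoter peak (chr2:25628727-25628937): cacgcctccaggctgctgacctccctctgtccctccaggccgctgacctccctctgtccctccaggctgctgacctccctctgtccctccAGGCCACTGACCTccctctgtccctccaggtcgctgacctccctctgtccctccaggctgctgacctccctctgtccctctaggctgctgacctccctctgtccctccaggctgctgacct
Arhgef7, intronic peak (chr8:11754811-11755021): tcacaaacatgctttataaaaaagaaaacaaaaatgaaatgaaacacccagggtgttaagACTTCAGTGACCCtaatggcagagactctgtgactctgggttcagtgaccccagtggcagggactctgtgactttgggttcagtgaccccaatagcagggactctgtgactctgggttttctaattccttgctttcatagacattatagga
Within the central 201 bp, 94.6% of the Fcna bases recurred 54 bp further on, 68.8% of the Ptgds bases recurred 15 bp further on, and 56.4% of the Arhgef7 bases recurred 38 bp further on. The repeated units carried near matches to IR1. With up to 4 mismatches allowed, the Fcna window held 7 matches, the Ptgds window 6 and the Arhgef7 window 3, against a median of 1 per peak over the list. Repeats of this kind, with at least 50% of bases recurring at a distance of 10 to 60 bp, were present in 99 peaks (0.494%, interval 0.406% to 0.601%), which is fewer than the 2.45% of windows taken 2 kb away. They were in 6 of the 100 strongest peaks, and among the 20 described here only the leading 3 had them. Peaks assigned to Mir101c on chromosome 9 also had them, the strongest at 8.11, 9.27 and 5.72, a high input. The repeat measure was chosen after the sequences were seen, and whether a repeat adds to the level at these peaks was not tested. The Ptgds and Fcna peaks were 156 kb apart on chromosome 2.

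Below these, levels changed little from peak to peak. The 20 strongest peaks with low input spanned 8.05 to 9.28 in replicate 1 and 8.98 to 10.71 in replicate 2, while their input spanned 0.16 to 1.36. The separation of ChIP from input follows from how they were chosen. After the leading 3 came peaks assigned to Gstt2, a glutathione transferase gene (8.53, 9.62 and 0.23), Zfp36, which encodes the mRNA decay factor tristetraprolin (8.45, 9.46 and 0.21), and Cks2, a cell cycle gene (8.31, 9.33 and 1.30). Nr0b2 ranked next after 4921525O09Rik. Its downstream peak, 4215 bp from the start site, stood at 8.21, 9.34 and 1.30. Mafg, which encodes a small MAF repressor, held an intronic peak at 8.39, 9.12 and 1.30. The others were assigned to Cdk8, Slc8b1, Phyh, Tfap2e, Klf9, Cabin1, Myo1c, 9430078K24Rik, Pcm1, Gatd1 and Cth. Of the 20, 16 lay within 10 kb of a start site, 5 were annotated as promoter and 5 held IR1 with at most 2 mismatches.

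**Figure D1:**
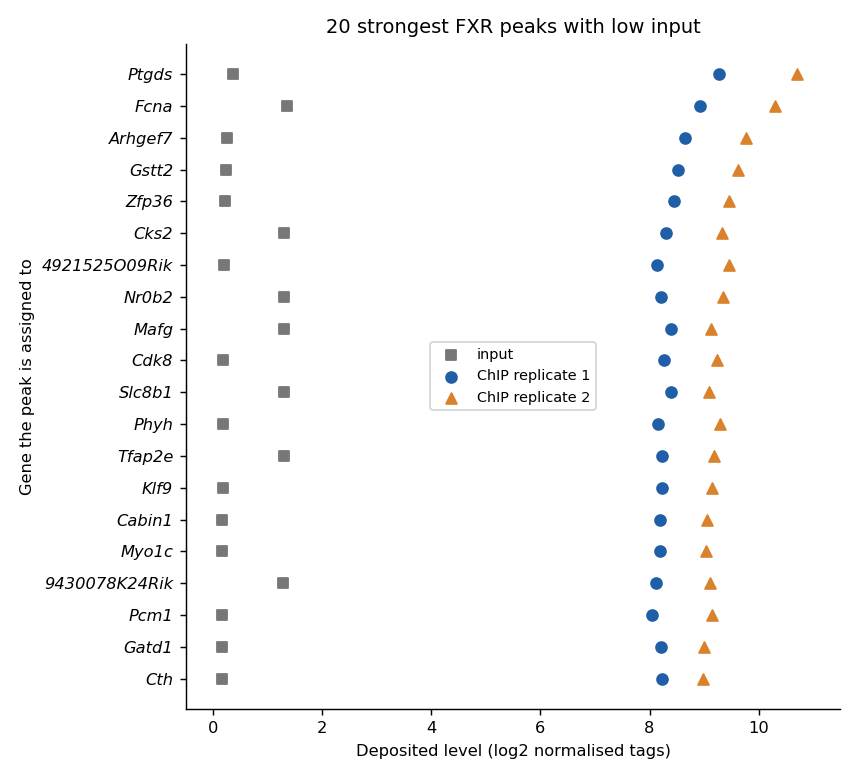
Deposited log2 level (x axis, log2 normalised tags) of the 20 strongest FXR peaks with low input, 1 row per assigned gene. Circles are ChIP replicate 1, triangles ChIP replicate 2 and squares the input; every ChIP value lies at 8.05 or higher and every input value at 1.36 or lower.

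Many peaks of similar strength had a high input. Of the 20 strongest peaks regardless of input, 9 were above the 95th percentile of input, as were 27 of the strongest 100 and 141 of the strongest 500. The strongest peak above that limit was intronic, 138335 bp from the start site of Chl1 (8.50, 9.73 and 4.64). Most of the other leading ones lay at or near start sites. Among them were the promoter of Wwc2 (8.57, 9.53 and 2.39), the promoter of Usp2, a ubiquitin peptidase gene (8.56, 9.50 and 4.56), and a peak 181 bp inside Fam49b (8.47, 9.34 and 5.76). The 95th percentile fell inside band 3 of input values, and it therefore left out the strongest peaks of that band, among them Slc9a8 (8.51, 9.44 and 1.95), whose best IR1 match has 1 mismatch. A limit above that band, chosen after seeing the data, would place Slc9a8 and Nfic among the 20 and leave out Gatd1 and Cth.

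Promoter peaks were led by genes of several functions. After Fcna and Cks2 came Cabin1 (8.18, 9.06 and 0.17) and Pcm1, a centriolar satellite gene (8.05, 9.15 and 0.16). C3, the central complement component, held a peak 101 bp upstream of its start site at 8.24, 8.93 and 0.16. Pemt, which makes phosphatidylcholine from phosphatidylethanolamine, held one 10 bp upstream at 8.03, 9.02 and 1.28. Gatd1, Rwdd3, Mpc2, a subunit of the mitochondrial pyruvate carrier, and Ifih1, a viral RNA sensor, completed the 10 strongest. Only Fcna and Rwdd3 of these 10 held IR1 within 2 mismatches.

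FXR peaks were assigned by the authors to the gene with the nearest start site. This gave 9025 gene names, and 7 peaks had none. By gene type, 85.5% of peaks were assigned to protein-coding genes and 13.5% to non-coding RNA genes. Among 21900 protein-coding genes of the RefSeq annotation, 7678 held at least 1 peak, a share of 35.1%, and 5149 held one within 10 kb of a start site, a share of 23.5%.

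Peaks were unevenly spread over genes. A single peak was assigned to 4603 gene names, 5 or more to 901 names and 10 or more to 121 names. The 901 names with at least 5 peaks took 31.2% of all peaks. Rreb1, which encodes a zinc finger transcription factor, had the most peaks, 21, of which 16 were intergenic. Its strongest peak stood at 7.03, 7.61 and 1.87 and its weakest was at 2.89 in replicate 1. Nfia, a nuclear factor I gene, had 19 peaks, of which 17 were intronic, and Rbm47, which encodes an RNA-binding protein, had 18 within a span of 118 kb. Nectin1 also had 18, Plpp3, Umps and 2010106C02Rik had 17 each, and Arid1b, Foxp1, Gm30173 and Ptpn1 had 16 each. Nr5a2, which encodes LRH-1, an activator of bile acid synthesis genes, had 15.

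Longer genes held more peaks. Among protein-coding genes split into 5 equal groups by gene length, the share with a peak was 14.8% in the shortest group (median 1.53 kb), 36.8% in the middle group and 51.3% in the longest (median 108 kb). The share with a peak within 10 kb of a start site was 10.9% in the shortest group and 24.05% to 28.1% in the others, so it hardly rose beyond the shortest genes. Neighbouring peaks were often close: the median distance to the next peak was 8897 bp, and 52.8% of peaks had another within 10 kb.

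Genes on the lists of hepatocyte function carried FXR peaks far more often than the average gene. The lists were chosen with earlier results of these data known, so the shares are descriptive. Some lists cover general cell functions, such as autophagy and the unfolded protein response. Of 413 genes on 24 lists of liver functions, 355 held a peak (86.0%, interval 82.3% to 89.0%), against 35.1% of all protein-coding genes. Within 10 kb of a start site it was 314 of 413 (76.0%), against 23.5%. Median gene length was 24.02 kb on these lists and 17.1 kb over all coding genes. All 10 hepatocyte marker genes, among them Alb, Ttr, Apob and Hnf4a, held a peak. Genes that mark other cells, 83 on 7 lists, held a peak in 22 cases (26.5%, interval 18.2% to 36.9%), and in 9 cases within 10 kb.

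**Figure D2:**
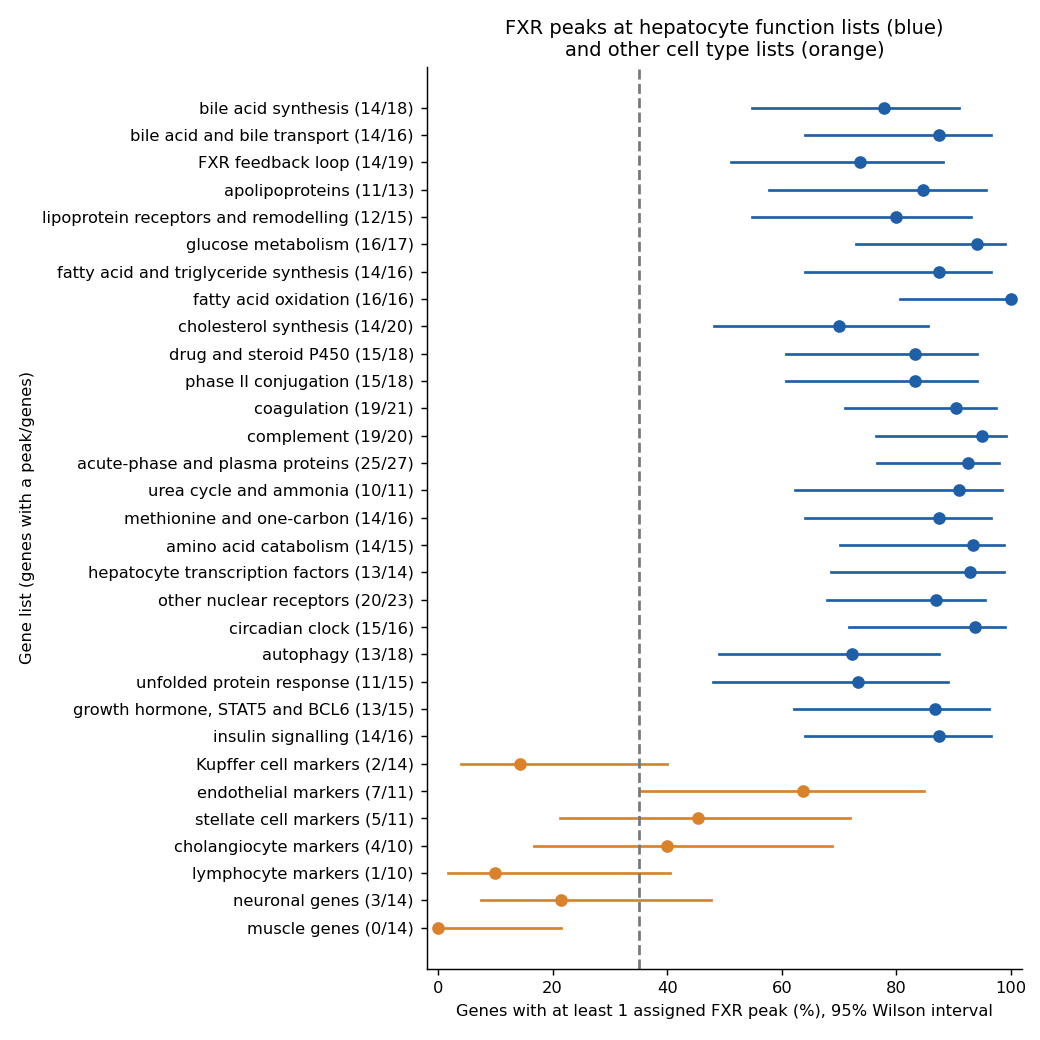
Share of the genes on each list with at least 1 assigned FXR peak (x axis, %), with 95% Wilson intervals as bars; blue marks lists of hepatocyte function and orange lists of other cell types. The dashed line is the share over all protein-coding genes, 35.1%. Each blue point lies at 70.0% or higher, while muscle genes lie at 0. The lists were chosen with earlier results of these data known.

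Bile acid genes held FXR peaks of very different levels. On the synthesis list 14 of 18 genes held a peak, on the list of bile acid and bile transport 14 of 16, and on the list of FXR feedback genes 14 of 19. These lists share the background of 35.1%.

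Nr0b2 held 3 peaks. Besides the downstream peak, its promoter peak 318 bp before the start site stood at 7.40, 8.27 and 0.05, and a peak at 10080 bp stood at 5.19, 5.52 and -0.31. Abcb11 held 1 peak, 60 bp upstream of its start site, at 7.27, 7.74 and 0.01. Slc51b, a subunit of the basolateral bile acid exporter, held 1 peak in its promoter at 7.50, 8.14 and 1.23. The other subunit gene, Slc51a, had 2 weak peaks, the stronger at 3.45, 3.81 and -0.55. Abcb4, the phosphatidylcholine exporter of the canalicular membrane, held 6 peaks, led by the intronic peak printed above at 7.21, 8.44 and 0.05. Slc10a1, the bile acid importer NTCP, held a peak 7334 bp upstream at 7.14, 8.13 and 0.02, and a much weaker one at its promoter at 4.31, 4.37 and -0.46. Slco1b2, another importer of the sinusoidal membrane, held 7 peaks, of which 4 had IR1.

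Among the enzymes, Cyp7a1, rate limiting in the classic pathway, had 7 peaks, all modest: the strongest, at 17371 bp, stood at 4.79, 5.40 and -0.35, and the promoter peak, 158 bp upstream, at 4.23, 5.69 and 1.05. None of the 7 held IR1 within 2 mismatches. Cyp8b1, which sets the share of cholic acid, had 1 peak at 5.09, 5.78 and -0.30. The other enzymes ranged widely. Akr1d1, the steroid reductase of the pathway, had 8 peaks led by one at 7.43, 8.13 and 1.89, and 2 of the 8 had IR1 with 1 mismatch. Cyp27a1, which opens the alternative pathway, had 5 peaks led by one at 6.98, 7.49 and 1.87. Both of these leading peaks had an input above its 95th percentile, though within band 3, whose strongest peaks that limit leaves out. Cyp7b1, also of the alternative pathway, was no higher than Cyp8b1 at 5.06, 5.61 and -0.32, and Baat, which conjugates bile acids, was led by a peak at 4.30, 4.73 and -0.43. Cyp39a1, Cyp46a1, Hsd3b7 and Acot8 had none.

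In the feedback list, Fgf21, which encodes a hepatic hormone, held the peak with the exact IR1 at 6.55, 6.96 and 1.16, placed 17667 bp from the start site. Fgf15, the mouse hormone that carries FXR signals from ileum to liver, held 1 peak in these liver samples at 5.27, 5.20 and -0.33, 1961 bp from its start site, with an IR1 of 1 mismatch. Of the genes for its receptor, Klb had 5 peaks led by one at 5.01, 5.22 and 1.07, and Fgfr4 had 1 at 4.75, 5.57 and 2.93, with an input above the 95th percentile. Nr1h4, the gene of FXR itself, was assigned 4 peaks, 11894 to 32152 bp from its start site, none with IR1 within 2 mismatches. The strongest stood at 4.30, 5.58 and -0.39, under the median of all peaks in replicate 1, 4.34, and above that in replicate 2, 4.91. Rxra, which encodes the partner of FXR, had 10, the strongest 80032 bp upstream at 5.86, 6.55 and -0.19. Rxrb, Rxrg, Ncor1, Gps2 and Sirt1 had none. Over the 53 bile acid and feedback genes, 31 of 182 peaks held IR1 (17.0%), beside 11.8% of all peaks.

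Lipid and glucose genes also held FXR peaks, in shares that varied by list. All 16 genes of fatty acid oxidation held a peak, led by Ppara, the receptor that directs this pathway (6.36, 6.90 and 3.19, a high input). Many were modest: 10 of the 16 had a peak at or above the median mean ChIP level, 4.59. By mean ChIP level, the strongest peak per gene had a median of 4.92, the lowest of the 24 lists. Over all coding genes with a peak it was 5.02. Peaks were also held by 14 of 16 genes of fatty acid and triglyceride synthesis, led by Fasn, the fatty acid synthase gene (7.48, 8.18 and 1.89), and 14 of 20 genes of cholesterol synthesis, led by Fdft1. Among lipoprotein receptors and remodelling genes 12 of 15 held a peak. Scarb1, the HDL receptor, had 13 peaks with the strongest at 7.91, 8.84 and 0.13, whereas Vldlr and Mttp were among those without. Apolipoprotein genes held peaks in 11 of 13 cases, with Apoa5 first (6.95, 8.004 and 0.00) and Apoe second (6.89, 7.50 and -0.04). For glucose it was 16 of 17, with the transporter Slc2a2 first (7.63, 8.35 and 1.24) and Pck1, the gluconeogenic enzyme, second (7.22, 7.96 and 1.22).

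Amino acid and one-carbon genes contained some of the highest levels of any list. Cth, which makes cysteine from cystathionine, held 5 peaks led by one 1144 bp upstream at 8.22, 8.98 and 0.16, and Pemt was second on the same list, on which 14 of 16 genes had a peak. On the urea cycle list 10 of 11 genes did, led by Ass1, argininosuccinate synthase, at 7.79, 8.62 and 0.11. Amino acid catabolism counted 14 of 15, led by Aass, the first enzyme of lysine breakdown, at 7.31, 8.21 and 0.04.

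Most genes on the lists of secreted liver proteins held a peak. Complement genes did in 19 of 20 cases, coagulation genes in 19 of 21 and acute-phase and plasma proteins in 25 of 27. The complement genes C1qa, C1qb and C1qc were counted with the Kupffer cell markers instead and had none. A peak at or above the median mean ChIP level, 4.59, was present at 12 of 20, 15 of 21 and 20 of 27 genes in the same order. Fgb, a fibrinogen chain, led the coagulation list at 7.67, 8.53 and 0.09, ahead of Serpinc1, antithrombin, at 7.24, 7.94 and 0.02. Rbp4, the retinol carrier, led the plasma proteins at 7.27, 8.19 and 4.02, but with a high input, ahead of Trf, transferrin, at 6.94, 7.39 and -0.04. Genes of drug metabolism had peaks in 15 of 18 cases for P450 enzymes, led by Cyp3a25, and in 15 of 18 for conjugation, led by Gsta4 (7.76, 8.73 and 0.11).

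Regulators were bound as well. Peaks were present at 13 of 14 hepatocyte transcription factor genes, led by Prox1 (7.35, 8.18 and 0.04), and at 20 of 23 other nuclear receptor genes, led by Nr1i2, which encodes the xenobiotic receptor PXR (7.95, 9.02 and 1.92). Clock genes had them in 15 of 16 cases, with Bhlhe40 first (7.58, 8.32 and 0.07). On the insulin signalling list 14 of 16 genes had a peak, led by Pik3r1 with 13 peaks, and on the list of growth hormone, STAT5 and BCL6 genes 13 of 15, led by Igfbp2. Bcl6 itself had 1 weak peak, 5371 bp upstream, at 3.36, 3.48 and -0.57. Autophagy genes were at 13 of 18, led by Sqstm1, the cargo receptor p62 (8.01, 8.65 and 0.13), and genes of the unfolded protein response at 11 of 15, led by Herpud1 (7.60, 8.50 and 0.09).

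Markers of other liver cells gave small counts, read beside the 35.1% of all protein-coding genes. Of 14 Kupffer cell markers 2 had a peak, and these were strong: Fcna, described above, and Csf1r, the macrophage growth factor receptor, at 6.48, 6.98 and -0.11. Clec4f, Cd68 and Adgre1 had none. Endothelial markers had peaks in 7 of 11 cases, but the strongest, at Oit3, was only 4.36, 5.52 and 1.06. Stellate cell markers had them in 5 of 11, cholangiocyte markers in 4 of 10, lymphocyte markers in 1 of 10, neuronal genes in 3 of 14 and muscle genes in 0 of 14, for which the interval reaches 21.5%. The intervals of the lists of liver cell markers were wide, and all but that of endothelial markers, which begins at 35.4%, include 35.1%. Whether binding in non-hepatocytes contributes to these peaks was not tested.

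Peaks lay closer to start sites than the genome at large. The median distance was 13906 bp, with quartiles of 2926 bp and 41223 bp. Of the peaks 3351 (16.7%, interval 16.2% to 17.2%) lay within 1 kb of a start site, against 2.04% of genome positions sampled every 1000 bp. The ratio of the shares fell steadily with distance, from 8.21 within 1 kb to 2.02 at 1 to 5 kb, 1.54 at 5 to 10 kb, 1.16 at 10 to 50 kb and 0.263 beyond 100 kb. At over 50 kb from a start site stood 4253 peaks. More peaks lay downstream of the start site (57.6%) than upstream. Of 9319 intronic peaks, 3911 (42.0%) were in the first intron of the transcript named by the authors.

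**Figure D3:**
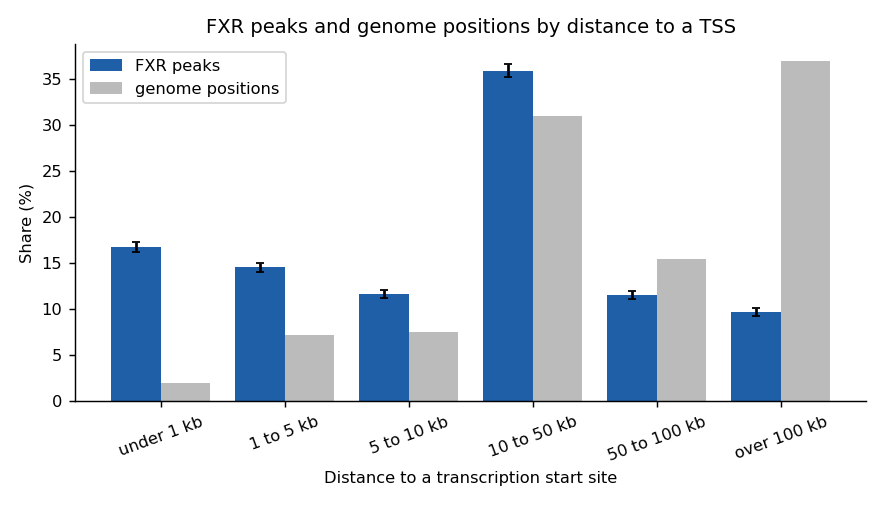
Share (y axis, %) of FXR peaks (blue, with 95% Wilson intervals) and of genome positions sampled every 1000 bp (grey) in each class of distance to a transcription start site (x axis). Blue exceeds grey in each class up to 50 kb, and within 1 kb it is 16.7% against 2.04%; beyond 100 kb it is 9.71% against 36.9%.

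Median levels depended little on distance. The median peak stood at 4.53 in replicate 1 and 5.08 in replicate 2 within 1 kb of a start site, and at 4.16 and 4.78 beyond 100 kb, while the median input fell from -0.30 to -0.42. Both ChIP libraries thus fell by less than 0.4, less than the distance between the 25th and 75th percentiles of replicate 1, 3.68 and 5.12. With the peaks split into 10 equal groups by mean ChIP level, 12.8% of the weakest group lay within 1 kb of a start site. In the strongest group it was 23.5%.

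The X chromosome was nearly bare of FXR peaks. It held 180, or 1.05 per Mb, whereas the autosomes ranged from 6.00 to 12.8 per Mb, with chromosome 19 the densest. The Y chromosome held 2. Of 966 protein-coding genes on X, 101 held a peak (10.5%, interval 8.68% to 12.5%), compared with 36.7% on the autosomes, where single chromosomes ranged from 25.8% to 43.0%. Among the listed functional genes 7 were on X, and only Otc, the urea cycle enzyme ornithine transcarbamylase, had peaks, the stronger at 4.87, 4.76 and -0.39. The coagulation factor genes F8 and F9, Cfp, Nsdhl and Pfkfb1 were among those without. On the autosomes 354 of 406 listed genes had one. The X peaks that were called had median levels of 3.997, 4.57 and -0.48, near those of the autosomes at 4.35, 4.91 and -0.38. Male cells hold a single X, and the part of copy number or of the peak threshold in this count was not tested.

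Paired half-sites were then counted in the central 201 bp of each peak and in 39250 windows of the same width 2 kb away. The 27 arrangements tested were direct, inverted and everted repeats of AGGTCA with 0 to 8 spacer bases, each with at most 2 mismatches in 12 scored bases, on both strands. The arrangements differed in how often they occurred in peaks. IR1 had the highest ratio of peaks to flanks, 14.6, in 2371 peaks. A direct repeat with 1 spacer base, the element known for HNF4A and PPARA and written DR1, was in more peaks, 2562 (12.8%, interval 12.3% to 13.3%), but it was also in 3.11% of flanks, a ratio of 4.12. The inverted repeat without a spacer came next by ratio, 4.74, in 3.32% of peaks. Among everted repeats the share was highest with 2 spacer bases, 5.36% against 1.44%. The other arrangements had ratios of 1.61 to 3.86. Arrangements overlap, since 1 window can match several: 60.2% of peaks and 26.0% of flanks matched at least 1 of the 27, and 22.9% of peaks and 3.85% of flanks matched IR1 or DR1. A lone exact half-site was in 40.3% of peaks and 12.6% of flanks.

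**Figure D4:**
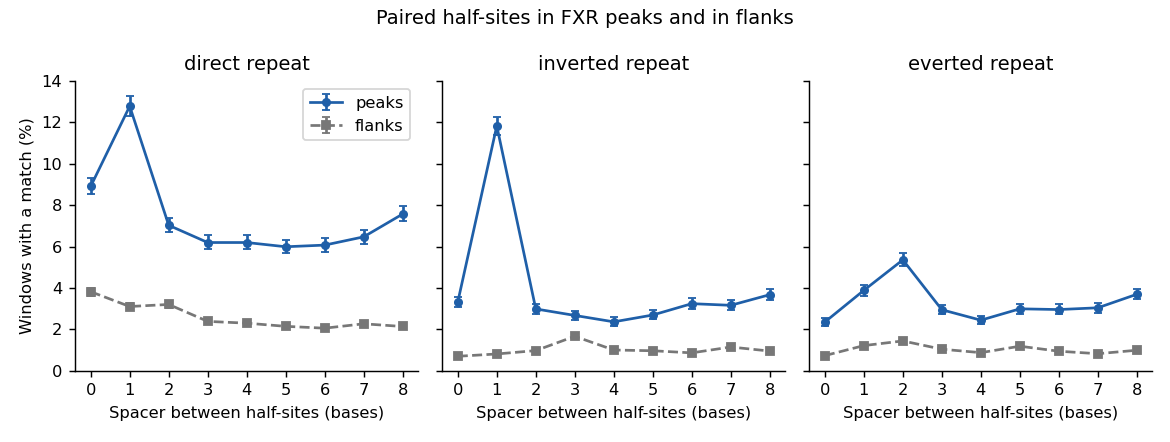
Share of windows (y axis, %) with a pair of half-sites in direct, inverted and everted repeats by spacer length (x axis, bases), in FXR peaks (blue circles) and flanks (grey squares), with 95% Wilson intervals. Peaks stand above flanks at each spacer; the sharp maxima are at a spacer of 1 in the inverted repeat (11.8%) and in the direct repeat (12.8%).

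The IR1 matches in peaks lay nearer the window centre than those in flanks. The median offset was 15 bp in peaks and 44 bp in flanks, and 34.7% were within 10 bp, against 10.7% in flanks. The best match in the downstream Nr0b2 peak lay 78 bp from the centre. Its class, 50 to 100 bp, held 9.36% of the matches in peaks and 46.1% of those in flanks. Exact matches were rare: 46 peaks had 0 mismatches, 447 had 1 and 1878 had 2, against 2, 19 and 298 flank windows. Mismatches were not spread evenly over the half-site. Counted from the 5′ end of each half-site, position 4, a T, took 28.3% of the mismatches and position 1, an A, took 20.9%, while position 2, a G, took 10.2%. In flanks position 4 also took the most, 23.3%, while position 1 took 12.7% and position 2 took 16.7%. Counted from 1 at the 5′ end of the printed capitals, both Nr0b2 sites and the Slc51b site carry A1G, and the Fcna and Ptgds sites carry T4C.

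Words of 8 bases were also counted without a preset motif. Of 5360 8-base words present in at least 1% of peaks, the one with the highest ratio to flanks was CATTGACC or its reverse complement GGTCAATG, in 2.90% of peaks and 0.344% of flanks, a ratio of 8.44. CAATGACC (3.77% against 0.469%) and AGGTCAAT (2.71% against 0.354%) followed. These 3 words are parts of IR1, with the half-site joined to its spacer and to the start of the facing half-site. Words of G and C that are not part of IR1 ranked high too, with CGCCCCGC in 1.40% of peaks and 0.234% of flanks, a ratio of 5.98. AAAGGTCA, a half-site with preceding A bases, was in 5.86% of peaks and 1.07% of flanks.

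The share of peaks with IR1 rose over the stronger peaks, and that of DR1 did not. With the peaks split into 10 equal groups by mean ChIP level, IR1 was in 9.43% of group 1, the weakest, 6.99% of group 2, 8.73% of group 5, 13.02% of group 8, 17.5% of group 9 and 25.8% of group 10, the strongest (interval 23.98% to 27.8%), while its flanks stayed between 0.533% and 1.195%. DR1 was in 11.3% of group 1, 14.2% of group 6 and 11.8% of group 10. The forkhead motif TGTTTAC of the FOXA pioneer factors was in 6.54% of group 1 and 5.49% of group 10. Peaks with IR1 had medians of 4.84, 5.40 and -0.25, and peaks without it 4.29, 4.87 and -0.40. The difference between them was alike in both ChIP libraries and smaller than the range of levels within either set. Group 10 also had the most peaks above the 95th percentile of input, 22.2%, against 0% in groups 1 to 5. That share is not independent of the grouping. Peaks had been selected for ChIP over input, and the limit lies in band 3. There the input value rose with the mean ChIP level (Pearson r = 0.989 across 1474 peaks, which are not independent replicates). Group 10 had the most within 1 kb of a start site, 23.5%, against 12.8% in group 1.

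**Figure D5:**
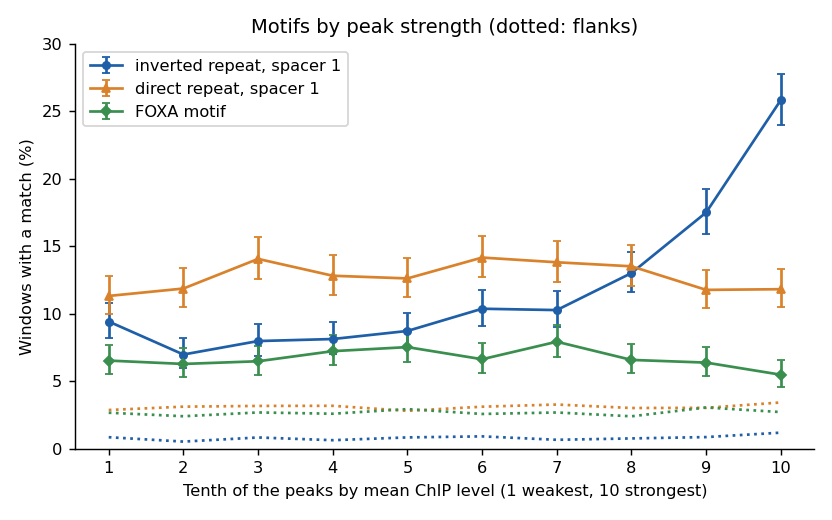
Share of FXR peaks (y axis, %) with IR1 (circles), DR1 (triangles) or the FOXA motif (diamonds) in 10 equal groups of peaks by mean ChIP level (x axis, from 1, weakest, to 10, strongest), with 95% Wilson intervals; dotted lines are the flanks of the same peaks. IR1 goes from 9.43% in the weakest group to 25.8% in the strongest, while DR1 and FOXA start at 11.3% and 6.54% and end at 11.8% and 5.49%.

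Motif content differed between promoter and distal peaks. IR1 was in 7.82% of peaks within 1 kb of a start site, in 12.3% of those at 1 to 50 kb and in 13.7% of those beyond 50 kb, with flank shares of 0.698%, 0.861% and 0.763%. DR1 was likewise lowest within 1 kb, at 7.97%, 13.9% and 13.2% in the same classes. Letters typical of promoters went the other way. The ETS motif CCGGAAGT was in 3.22% of promoter peaks, against 7 of 6588 of their flanks (0.106%), and in 0.259% of peaks beyond 50 kb. The GC box GGGGCGGGG was in 9.43% of promoter peaks, against 1.02% of their flanks, and in 0.635% of peaks beyond 50 kb. The FOXA motif was in 3.999% of promoter peaks and 8.65% of peaks beyond 50 kb.

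Motifs of other liver factors were present to different degrees over the whole list. FOXA stood at 6.71% of peaks and 2.68% of flanks. The extended half-site CAAGGTCA that LRH-1 is known to prefer was in 4.26% and 1.503%, and it contains AGGTCA, so it overlaps the half-site counts above. The exact C/EBP palindrome TTGCGCAA was rare, in 48 peaks (0.240%) and 9 flank windows (0.0229%), a ratio of 10.4 from small counts. The E-box CACGTG was in 5.00% and 2.67%. The STAT motif TTCNNNGAA, whose spacing is that of STAT5 sites and resembles the site of BCL6, was in 6.56% of peaks and 6.13% of flanks, with intervals of 6.23% to 6.91% and 5.90% to 6.37%, which overlap. The AP-1 motif TGANTCA was in 7.91% and 5.80%. Peaks were richer in G and C than flanks, 50.7% against 45.7%, which bears on shares of motifs of uneven base composition.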

How the data were processed

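FXR ChIP-seq of Bcl6 fl/fl liver comprised 2 ChIP libraries and 1 input, grouped by their labels. Per the methods and labels, livers were crosslinked with DSG and formaldehyde and immunoprecipitated with antibody E4B8P, and 100 bp single-end reads were aligned to mm10, keeping unique alignments. The submitters' processing notes name Bowtie 1.2 and HOMER 4.10. HOMER was run by the authors in its factor style, per the file headers, with both ChIP libraries pooled and set against the input, and the peaks were filtered by DESeq2 at FDR 0.05 and log2 fold 1. The header calls the deposited values tag counts, but they are not whole and some are negative, so they were read as the log2 values of that DESeq2 step, scaled to library totals. Such values shrink towards each other, which understates differences. The deposited Peak Score is a signal per 10000000 tags of the pooled ChIP libraries and gave no result. Fold changes and p-values of ChIP against input in the deposited table are the authors' comparison and were not used.

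Strength was the mean of both ChIP log2 values. Gene assignments, classes and TSS distances were the authors', and 93.6% of the distances of 19927 peaks matched the RefSeq annotation of GRCm38.p6 (the coordinates of mm10) within 2 bp. Entrez identifiers of 99.9% of peaks matched that annotation. Genome positions every 1000 bp were measured to 31563 curated RefSeq start sites. Half-sites were scanned in 201 bp windows, and flanks that overlapped a peak were dropped. The scan was tested on simulated data: 100% of planted pairs were found in 2000 windows for each of 27 arrangements, and at most 1.8% of unplanted windows were called. Scripts ran under pysam 0.24.0, pandas 2.3.3, numpy 2.4.6 and Python 3.11.15, and figures were drawn with matplotlib 3.10.9.

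Peaks were named by rule: the 20 strongest and the 10 strongest promoter peaks with input at or under the 95th percentile, the 10 gene names with most peaks and those tied with them, the leading members of each gene list and members without a peak, and all bile acid and feedback genes. Some list members are not reported here. The tandem repeats, the X chromosome, Nr5a2 in the count of peaks per gene and the high-input peaks were singled out after their values were seen. The members and lists were chosen with earlier results of these data known. Nothing in the labels says whether the 2 ChIP libraries came from separate mice.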

Additional observations from a re-analysis of the deposited data

How the results depend on the processing

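Of 41 alternative values, 29 stayed within 1.5 times the reported count, within its interval or within the SD of the 2 libraries, and 12 moved. Keeping the 10020 peaks at or above the median strength gave 4965 genes, 18.99% of peaks within 1 kb of a start site, 19.6% over 50 kb, 15.4% with IR1 and a median level of 5.37, against 7678 genes, 16.7%, 21.2%, 11.8% and 4.59 in the whole list. Limiting the input to its 95th percentile gave 15.4% of peaks within 1 kb, and limiting it to the 3 lowest bands, chosen after seeing the data, gave 15.4%. The authors' promoter class held 11.4% of peaks. IR1 was in 2.46% of peaks with at most 1 mismatch, in 0.230% with none, and in 10.5% within 50 bp of the centre. Each of these settings changed which peaks were kept, the class or window used, or the strictness of the match. Why the shares moved was not tested. Selection by either ChIP library alone, at its own median, gave 4948 to 4962 genes, 285 to 300 listed genes and 15.2% to 15.3% with IR1. These were near the values for both libraries at that threshold. The number of peaks kept, 10020 for both libraries and 10025 to 10026 for either alone, is set by a cut at the median. These peak counts are among the 41 values but say nothing about agreement. The median level of either library alone was 4.34 or 4.91. No paired analysis was possible because the result comes from no test between groups and only 1 genotype was used.

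Peaks were called on pooled libraries of unequal depth, so replicate 1 weighs most in which peaks exist, and counts of peaks and genes have no replicate spread. The nearest start site need not be that of the regulated gene. A lack of a peak means that none passed the authors' filter, not that FXR was absent.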

Other observations

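Gene families differed in how often their members held an FXR peak. Of 1110 olfactory receptor genes 16 held a peak (1.44%), of 355 vomeronasal receptor genes 5 (1.41%) and of 111 keratin and keratin-associated genes 9 (8.11%). Of 389 solute carrier genes 190 held a peak (48.8%), and of 56 genes of the Cyp2 family 33 (58.9%), beside 35.1% of all protein-coding genes. Families were picked after the lists above had been counted, and members of a family are often neighbours, so they are not independent.

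The deposited values of both ChIP libraries ranked the peaks alike at the top: 15 of the 20 highest peaks of replicate 1 were among the 20 highest of replicate 2, as were 86 of the highest 100 and 425 of the highest 500. The ranks within a pooled peak list share the same peak selection.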
